A study of Mus musculus with 11 samples.

Results

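The INIP library is 1 of 11 libraries of HIV integration sites from mouse embryonic fibroblasts, and it is set here against the libraries of the 3 other subunits of the SOSS complexes, INTS3, NABP1 and NABP2. It was chosen by its label, and its members are the distinct combinations of chromosome, position and strand in it, 24907 of 831994 in the series. INTS3 had 96318 such sites, NABP1 188432 and NABP2 88204. All 4 libraries came from C57BL/6 embryonic fibroblasts of LEDGF-/- genotype. The cells were electroporated with a plasmid for the named protein joined to the integrase-binding domain of LEDGF (LEDGF-IBD), received HIV 24 hours later and were kept for 3 more days. Each protein has 1 library, so every test below compares libraries, and an exact permutation test of 1 library against 3 cannot give a p below 0.25. How strongly each fusion protein was expressed is not given in the sources used here, and a library with LEDGF-IBD alone was not analysed here.

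LEDGF normally tethers the viral integrase to chromatin of active genes, and in cells without it a fusion of LEDGF-IBD to another protein can carry integration to where that protein sits. SOSS complexes bind single-stranded DNA and take part in the repair of double-strand breaks. Each holds INTS3, which is also a subunit of the Integrator complex, one of the alternative DNA-binding subunits NABP1 and NABP2, and the small protein INIP. Integrator cleaves nascent RNA of polymerase II, among them the spliceosomal small nuclear RNAs (snRNAs), just past the end of the gene and upstream of a short DNA element called the 3′ box.

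The INIP library stood apart from the other 3 in the sites themselves, and this touches all results that follow. HIV integrase favours a weak palindrome at the bases it duplicates. Of the INIP sites, 15.1% (95% exact binomial interval 14.7 to 15.6) matched at least 3 of the 4 fixed letters of GTNAC there, against 21.8% of INTS3, 21.0% of NABP1 and 20.2% of NABP2 sites and 4.16% of genome positions. The genome bases just before the junction read AGCA, the letters in which the joined viral DNA also ends, at 6.52% (6.22 to 6.83) of INIP sites. INTS3 had 0.645%, NABP1 0.620% and NABP2 1.32%, and the genome 0.528%. INIP, INTS3 and 15333 NABP2 sites (17.4% of that library) came from 1 flow cell, called the shared run here, by the read names. NABP2 had AGCA at 4.85% of its sites of the shared run and at 0.588% of its other sites, while INTS3, all of it from the shared run, had 0.645%. Values without such sites stand beside the results they change. INIP shared 28 exact positions with INTS3, 59 with NABP1 and 117 with NABP2.

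The 5 windows of 100 kb with most INIP sites all lay at multi-copy snRNA genes, and the sites there gathered just downstream of the genes. The U1, U2, U4 and U5 snRNAs, which form the cores of spliceosomal particles, are encoded by near-identical copies. Clusters of at least 2 copies of 1 family, no more than 50 kb apart, gave 10 loci, with the family taken from the annotated name. For 3 of the 4 U2 copies on chromosome 1 the family was instead assigned by at least 95% sequence identity. By annotated name alone that locus would not be a cluster. The minor spliceosome gave 3 more loci, 1 copy each of U11, U12 and U4atac, with 40 copies in all. Of 5 U11 and 6 U12 copies, the 1 nearest in sequence to its family was taken. Sequences that follow the 4 copies with the most INIP sites in the first 1 kb from the start are shown here, since INIP sites gathered in this stretch. They are the 40 bases past the end of the annotated copy from the mm9 genome on the strand of the copy. Capitals mark GTT and AGA separated by 6 to 10 bases, a pattern written here to resemble the 3′ box.
U2 copy on chromosome 11, flank chr11:101488871-101488910, plus strand: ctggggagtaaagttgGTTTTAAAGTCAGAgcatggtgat
U1 copy on chromosome 11, flank chr11:87236533-87236572, plus strand: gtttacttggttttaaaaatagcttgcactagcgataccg
U5 copy on chromosome 9, flank chr9:65044339-65044378, minus strand: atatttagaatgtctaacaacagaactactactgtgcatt
U4 copy on chromosome 5, flank chr5:115940404-115940443, plus strand: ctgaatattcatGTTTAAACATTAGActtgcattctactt
The letters were searched on the strand of the copy only. They occurred past 16 of the 40 copies in the loci (40%), past 7.02% of 285 other copies of these families and past 2.60% of 963 U6 and U6atac copies. Neither the U1 nor the U5 flank printed above holds them.

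**Figure D1:**
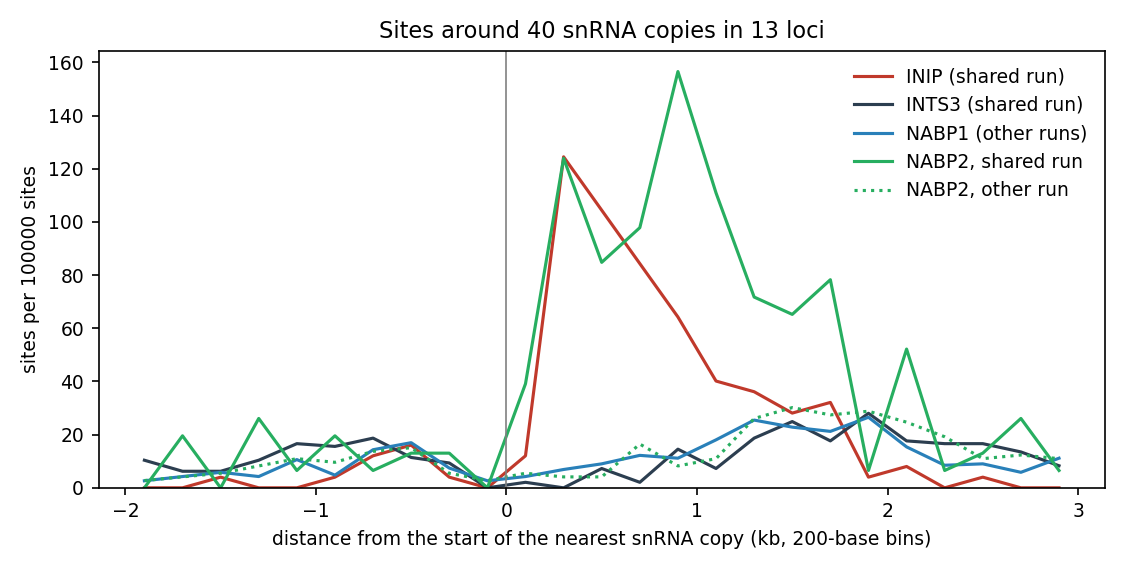
Sites per 100000 sites in 200-base bins (vertical axis) by distance from the start of the nearest of 40 snRNA copies in transcript direction (horizontal axis, kb), for INIP, INTS3, NABP1 and the 2 runs of NABP2. INIP and the NABP2 sites of the shared run rise just past the start, and INTS3, NABP1 and the other NABP2 run stay low there.

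INIP had 97 sites within 1 kb downstream of the starts of these copies, or 389 per 100000 sites (95% Poisson interval 316 to 475). INTS3 had 26.0 (16.8 to 38.3), NABP1 43.5 (34.6 to 54.0) and NABP2 119 (97.4 to 144) per 100000. The intervals cover counting error only, and the stretch of 1 kb was chosen after its values were seen. These sites made up 63.4% of the 153 INIP sites within 5 kb of the copies, against 6.43% of 389 in INTS3, 12.4% of 662 in NABP1 and 22.5% of 467 in NABP2. Their median distance from the start was 519 bases in INIP, with quartiles at 342 and 685 bases. The first 200 bases, which cover the short genes, held 3 of the 97. In the bin from 200 to 400 bases INIP had 31 sites, against 0 in INTS3, 13 in NABP1 and 22 in NABP2. Both orientations were present, and 54 of the 97 proviruses had the strand of the gene. Of the 97 positions, 0 were found in INTS3, 0 in NABP1 and 2 in NABP2.

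Within NABP2 the result depended on the run. Its sites of the shared run had 502 (396 to 628) per 100000 in the first 1 kb, above the INIP value with an overlapping interval, and its other run had 38.4 (25.5 to 55.5). INTS3, from the shared run, remained at 26.0, so in that run INIP was above INTS3 and not above NABP2. The 2 runs of NABP1, neither of them shared, had 80.9 and 14.2. In the 7 libraries of the other proteins the level ranged from 47.2 to 363 per 100000. The protocols name reads of 70 bases on a GAIIx and of 100 bases on a HiSeq instrument. Placement of reads among near-identical copies is uncertain, so a site at one named copy may belong to another of its family. The part of instrument and run in this result was not tested.

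**Figure D2:**
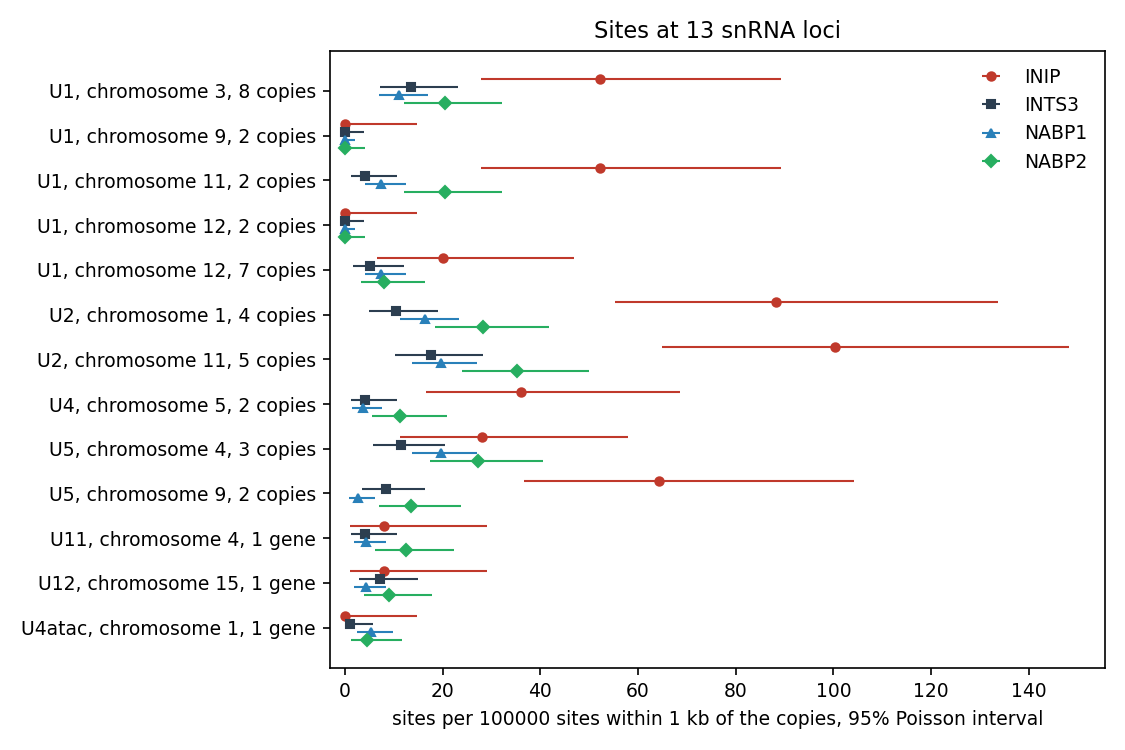
Sites per 100000 sites within 1 kb of the copies of each of 13 snRNA loci (horizontal axis) with 95% Poisson intervals, for INIP, INTS3, NABP1 and NABP2. INIP is the highest of the 4 libraries at 8 of the 13 loci and at 0 sites at 3.

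Of the 40 copies, 21 had INIP sites in their first 1 kb. NABP2 had sites there at more copies than this, and NABP1 and INTS3 at fewer, in libraries of unequal size. The U2 copy at chr11:101488680-101488870 had 9 INIP sites there, against 0 in INTS3, 0 in NABP1 and 3 in NABP2, all 3 from the shared run. The U1 copy at chr11:87236369-87236532 had 8 INIP sites, against 0, 0 and 6, again all from the shared run of NABP2. The U4 copy at chr5:115940263-115940403 had 8 INIP sites, against 0 in INTS3, 1 in NABP1 and 5 in NABP2. These copies were named for having the most INIP sites, so a high INIP count at them was favoured by the choice. The NABP2 sites at them all came from its 15333 sites of the shared run, fewer than the 24907 of INIP.

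Taken locus by locus with 1 kb on each side of every copy, INIP was above all 3 libraries at 8 of 13 loci and below them at 1, while 2 loci had 0 sites in all 4 libraries. The U2 copies on chromosome 11 had 100 sites per 100000 in INIP, against 17.6 in INTS3, 19.6 in NABP1 and 35.1 in NABP2. The U2 copies on chromosome 1 had 88.3 in INIP, against 10.4, 16.5 and 28.3 in INTS3, NABP1 and NABP2. The U5 copies on chromosome 9 had 64.2 in INIP, against 8.31, 2.65 and 13.6. At this width, and with both runs of NABP2 pooled, these 3 loci differed from each of the 3 libraries by the exact binomial test. Benjamini-Hochberg adjustment was done together with all genes tested, and the largest adjusted p was 0.024. The width overlaps the stretch of 1 kb chosen after its values were seen, so this p is a description. On chromosome 3, the U1 copies had 52.2 in INIP, against 13.5, 11.1 and 20.4, and on chromosome 11 the U1 copies had 52.2 in INIP, against 4.15, 7.43 and 20.4. Against NABP2 both missed the threshold, each with an adjusted p of 0.206 by the same exact test. NABP2 sites of the shared run stood at 150.003 per 100000 at U2 on chromosome 11, 84.8 at U2 on chromosome 1 and 58.7 at U5 on chromosome 9, close to or above the INIP values. With 5 kb on each side 0 of the 13 loci passed against all 3 libraries. At the U11 copy taken, with 5 kb on each side, INIP had 12.04 per 100000 from 3 sites, against 35.3, 28.1 and 44.2. At U4atac it had 0 sites, which allows up to 12.04 per 100000 (3 counts).

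All copies of spliceosomal snRNAs were 1285 by annotated name, many of them pseudogene copies of U6, and the 3 assigned by sequence. Over these together the density within 1 kb was 5.81 times uniform in INIP, against 2.33 in INTS3, 2.59 in NABP1 and 3.68 in NABP2. The largest exact binomial p of the 3 comparisons was 5.31e-06, against NABP2 with both of its runs pooled. It is a description, because the width of 1 kb overlaps the stretch chosen after its values were seen. With 5 kb on each side the values drew together at 2.70 in INIP, against 2.39, 2.28 and 2.81, and the exact p against NABP2 was 0.525. U6 copies, which polymerase III transcribes and Integrator does not process, had 1.15 times uniform density in INIP within 1 kb, against 1.30, 1.66 and 1.84. By family, INIP was above all 3 libraries within 1 kb of U1, U2, U4 and U5 copies, and not at U11, U12, U4atac, U6 or U6atac copies. It had 2 sites each at U11 and U12 and 0 at U4atac and U6atac, too few to detect a difference at these 4 families. U2 copies, with the 3 assigned by sequence included, stood at 49.1 times uniform in INIP, against 9.29, 10.8 and 18.3. Within the shared run alone, NABP2 had 8.57 times uniform density within 1 kb of all copies, above the 5.81 of INIP (exact binomial p = 0.000934). Without sites preceded by AGCA, INIP stood at 6.13, against 2.32, 2.59 and 3.72. With all sites and the copies taken by annotated name alone, INIP stood at 5.29 within 1 kb, the highest of the 4 libraries.

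Around protein-coding genes the INIP library was closer to uniform than the other 3. Its share was lower than in each of them in 11 of 14 parts tested, or 78.6%, and higher in 3, or 21.4%. Near gene starts, within 1 kb, lay 3.86% (3.62 to 4.10) of INIP sites, against 7.27% in INTS3, 8.50% in NABP1 and 6.10% in NABP2, with 1.65% of the genome. In the stretch from 1 to 5 kb downstream of starts INIP had 6.58%, against 12.6%, 13.8% and 16.1%. First introns held 20.3% of INIP sites, against 26.4%, 31.2% and 37.7%, and exons 5.48%, against 6.95%, 7.38% and 6.46%. Near gene ends, within 1 kb, the share was 2.55% in INIP, against 3.68%, 3.59% and 3.52%. Farther than 5 kb from any protein-coding gene lay 41.0% (40.4 to 41.6) of INIP sites, against 31.1% in INTS3, 28.2% in NABP1 and 24.4% in NABP2, with 55.3% of the genome. Each of the 14 parts differed from each library by Fisher's exact test with Benjamini-Hochberg adjustment over 14 parts and 3 libraries, with a largest adjusted p of 0.000886.

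**Figure D3:**
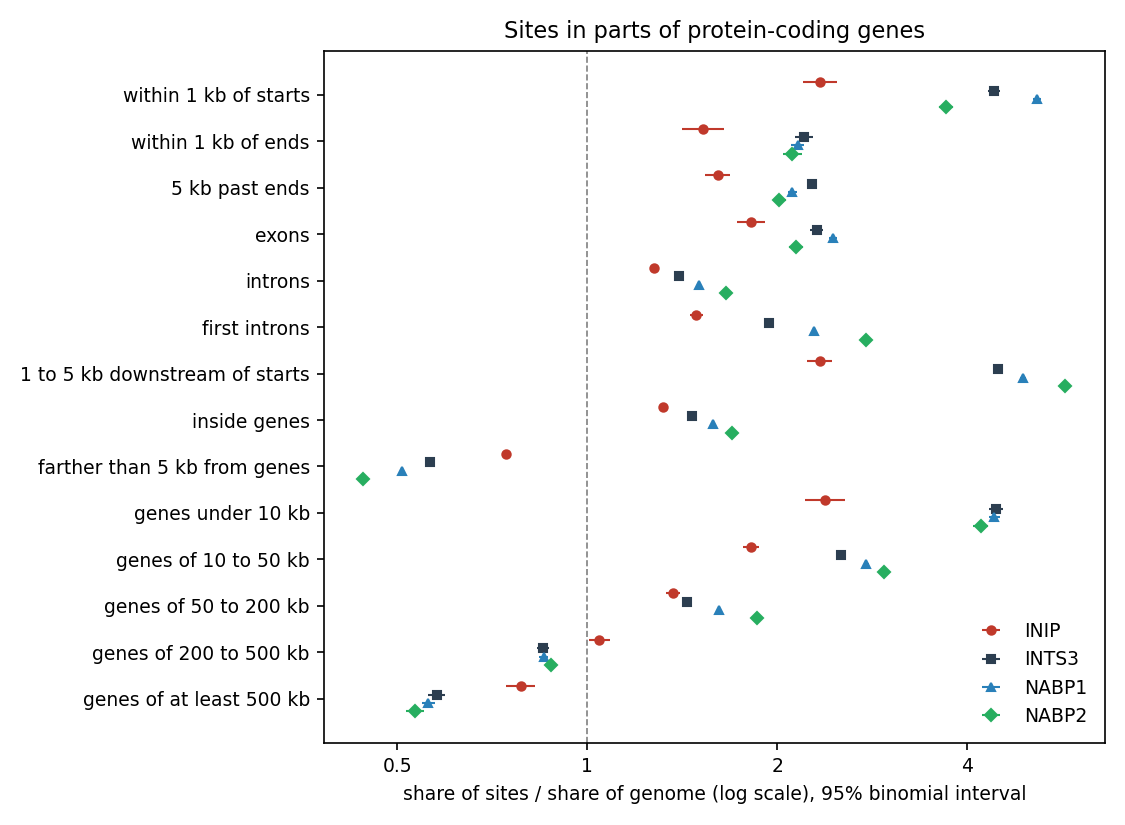
Share of sites divided by share of the genome (horizontal axis, log scale) in 14 parts of protein-coding genes, with 95% binomial intervals, for INIP, INTS3, NABP1 and NABP2. INIP lies nearer to 1 than the other 3 in most parts, for example at 2.34 within 1 kb of starts.

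The order of the 3 other libraries was not the same in all parts, and INIP lay outside their range in each of the 14. NABP2 had the highest share of sites in first introns, and NABP1 the highest near starts. In the shared run 11 parts were again lower (78.6%) and 3 higher (21.4%), and starts had 3.86% of INIP sites, against 7.27% of INTS3 and 5.39% of NABP2 sites. Among sites that match GTNAC the gap was smaller, with 4.53% of INIP sites within 1 kb of starts, against 7.07%, 8.12% and 6.08%, and 37.7% farther than 5 kb from genes, against 31.1%, 27.8% and 23.1%. Of the 11 lower parts, exons then missed the threshold, and genes of 50 to 200 kb had 20.5% of INIP sites, against 20.3%, 23.0% and 26.7%, no longer below INTS3.

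**Figure D4:**
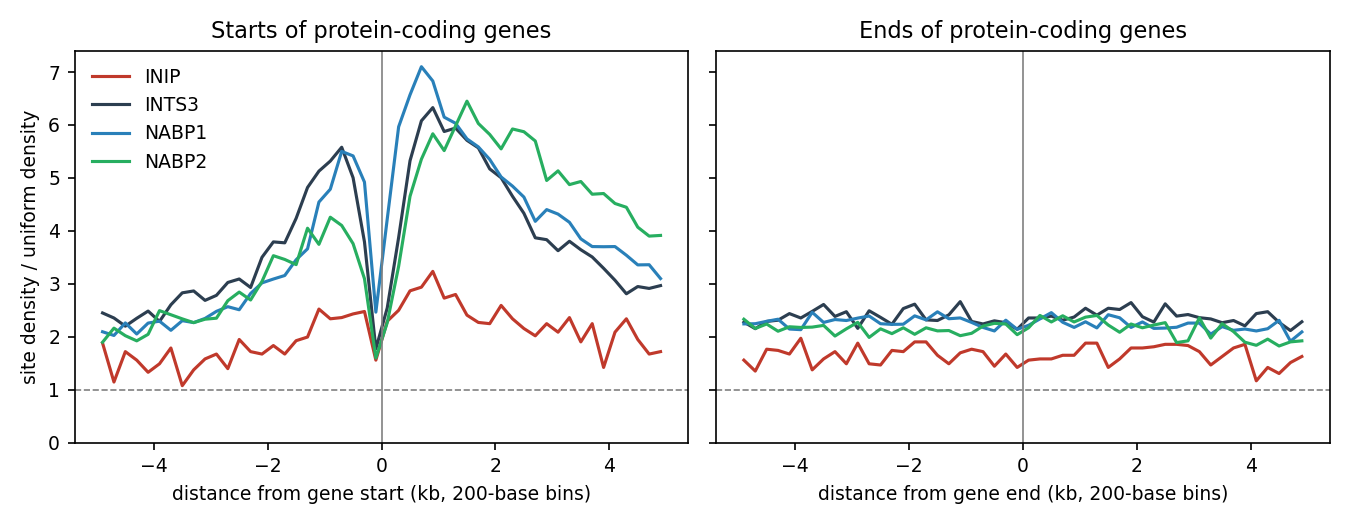
Site density divided by uniform density in 200-base bins (vertical axis) by distance from starts and ends of protein-coding genes (horizontal axis, kb), for INIP, INTS3, NABP1 and NABP2. INIP follows the same shape around starts at a lower level, with its highest bin at 3.24.

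The profile around starts had the same landmarks in all 4 libraries, a dip at the start and a shoulder on each side. INIP reached 3.24 times uniform density at 800 to 1000 bases downstream, against 6.33, 6.83 and 5.83 in INTS3, NABP1 and NABP2 in that bin. In the bin just upstream of the start the density was 1.56 in INIP, against 1.77, 2.47 and 1.60, so INIP lay close to INTS3 and NABP2 there and below NABP1. Around gene ends no library had a peak of this kind, and INIP lay below the others. CpG-rich starts, of the kind that broadly expressed genes carry, held 2.38% of INIP sites within 1 kb, against 5.08%, 6.19% and 4.31%. For CpG-poor starts the shares were 1.48% in INIP, against 2.19%, 2.31% and 1.79%. Mean GC content over 1 kb around sites was 43.5% in INIP, against 44.5%, 44.9% and 44.6%, and 41.8% over the genome.

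Gene length separated the libraries as well. Genes under 10 kb held 2.89% of INIP sites, against 5.39%, 5.35% and 5.09%. For genes of 200 to 500 kb the order turned, with 9.28% in INIP, against 7.56%, 7.57% and 7.78%, and genes of at least 500 kb held 5.29%, against 3.89%, 3.77% and 3.60%. Very long genes hold 6.74% of the genome, so INIP was still below uniform density in them. Gene by gene, with 5 kb on each side, 3112 of 32052 genes reached a mean of 2 sites at the size of the INIP library. This filter counts all 4 libraries, so genes high in any of them enter. INIP was above all 3 libraries at 124 of 177 tested genes of at least 500 kb and below them at 24. At genes under 10 kb it was above at 49 of 519 and below at 390. Over all genes tested it was above at 22.8% and below at 53.3%.

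Single genes rarely passed the test against all 3 libraries. In simulated counts at the size of the INIP library the test detected a decrease far less often than an increase of the same fold. By the exact binomial test with Benjamini-Hochberg adjustment over 3112 genes, INIP was higher than each of the 3 at 1 gene and lower at 1 gene, 0.0321% in each direction. In the shared run 0 genes passed in either direction (0.0%). Against INTS3 alone 5 genes passed as higher (0.161%) and 2 as lower (0.0643%), against NABP1 alone 2 (0.0643%) and 1 (0.0321%), and against NABP2 alone 11 (0.353%) and 28 (0.9%). Unadjusted exact p was below 0.05 against all 3 at 56 genes with more and at 55 with fewer INIP sites. Sgcd encodes delta-sarcoglycan, a membrane protein of the dystrophin complex of muscle. With 17 sites in INIP, against 16 in INTS3, 25 in NABP1 and 12 in NABP2, it had 68.3 sites per 100000 in INIP, against 16.6, 13.3 and 13.6. INIP lay above all 3 by 4.11-fold, 5.14-fold and 5.02-fold, with a largest exact adjusted p of 0.0407. The call was lost without sites preceded by AGCA and in the shared run. Gm20388 is an annotated gene model on chromosome 8 that runs over many neighbouring genes with Usp10 and Gse1 among them. It had 369 sites per 100000 in INIP, against 639, 623 and 669, and the largest exact adjusted p was 0.000862.

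Most genes with many INIP sites were snRNA neighbours or very long genes. Tex14, a gene of germ cell bridges whose window holds 2 U1 copies, had 141 sites per 100000 in INIP, against 116, 116 and 173. D230017M19Rik, a lincRNA among the U2 copies of chromosome 1, had 72.3 in INIP, against 63.3, 43.0 and 49.9. Among long genes, Macrod2, for a hydrolase of ADP-ribose marks, had 76.3 in INIP, against 44.6, 46.2 and 43.1. Ctnna3, for alpha-T-catenin, had 72.3 in INIP, against 31.1, 38.2 and 20.4. Ptprt, for a receptor-type tyrosine phosphatase, had 56.2 in INIP, against 9.34, 15.4 and 11.3. These 3 long genes were above all 3 libraries in INIP, which their choice among the genes with most INIP sites favours. None passed against each library, with largest exact adjusted p of 0.613, 0.438 and 0.0949. Fgfr2, a growth factor receptor gene whose model runs over many neighbours, had 108 in INIP, against 112, 125 and 126. Trio, for a guanine nucleotide exchange factor, had 56.2 in INIP, against 30.1, 50.9 and 111.

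Windows of 100 kb gave departures in 1 direction. INIP was lower than each of the 3 libraries in 5 of 2898 windows tested, 0.173%, and higher in 0 (0.0%). In the shared run 2 of 3096 were lower (0.0646%). Without any test, INIP was below all 3 values in 55.9% of windows and above them in 20%. Unadjusted exact p was below 0.05 against all 3 at 85 windows with fewer INIP sites and at 20 with more, and limma called 0 windows after adjustment. The window chr15:98700001-98800000 holds the alpha-tubulin genes Tuba1a and Tuba1b. It had 2 INIP sites or 8.03 per 100000, against 108, 83.3 and 97.5. The window chr8:125000001-125100000 lies inside Gm20388 and holds Cdt1, a factor of replication licensing. INIP had 0 sites in it, which allows up to 12.04 per 100000, against 47.8, 45.1 and 44.2. The window chr17:35100001-35200000, with the heat shock gene Hspa1a, had 20.1 per 100000 in INIP, against 120, 99.8 and 108. The window chr19:5400001-5500000 holds the AP-1 gene Fosl1 and Cfl1, the gene of the actin-severing protein cofilin. It had 20.1 in INIP, against 105, 92.9 and 88.4. The window chr19:5800001-5900000, in which Neat1 lies, had 36.1 in INIP, against 134, 142 and 189. The largest adjusted p over these 5 windows was 0.028.

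The windows with most INIP sites were the U1 window of chromosome 11 with 34 sites, the U5 window of chromosome 9 with 27, the U2 window of chromosome 1 with 26, the U4 window of chromosome 5 with 19 and a U2 window of chromosome 11 with 18. None of them differed from all 3 libraries after adjustment at this width.

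Regions of 1 Mb hold more sites and separated more often. INIP was higher than each of the 3 in 16 of 2463 regions, 0.65%, and lower in 26, 1.06%. The 16 regions overlapped a median of 1 protein-coding gene, and the 26 a median of 38, beside 6 over all regions tested. Median sites per 100000 in INTS3, NABP1 and NABP2 were 10.4, 12.7 and 9.07 in the 16 and 225, 220 and 226 in the 26. Over all regions tested they were 29.1, 29.2 and 26.1. A lower call needs many sites in these libraries, so the contrast in gene number is not independent of the calls. The largest mean fold was at chr14:11000001-12000000, which overlaps the fragile-site gene Fhit and had 9 INIP sites, against 2 in INTS3, 11 in NABP1 and 5 in NABP2. Of the 16 regions, 2 reached the minimum mean of 2 sites only with their INIP sites. This region is one of them, with a mean of 1.13 sites in the 3 others at the size of the INIP library, so its fold is a description. The next largest was at chr16:88000001-89000000, which had 15 INIP sites, against 10, 24 and 4. It overlaps 20 protein-coding genes, with the glutamate receptor gene Grik1 and several Krtap genes among them. Gene-dense chr11:120000001-121000000, with the gamma-actin gene Actg1, had 35 INIP sites, against 403, 757 and 348. Whole chromosomes followed, and INIP was higher than all 3 on 6 of 20 (chromosomes 1, 6, 14, 16, 18 and X, 30.0%). It was lower on 5 (chromosomes 8, 11, 15, 17 and 19, 25%), by Fisher's exact test with adjustment over chromosomes and libraries. Chromosome 11 held 6.94% of INIP sites, against 8.11%, 8.07% and 8.05%, and chromosome 1 held 7.17%, against 6.08%, 6.26% and 5.88%.

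**Figure D5:**
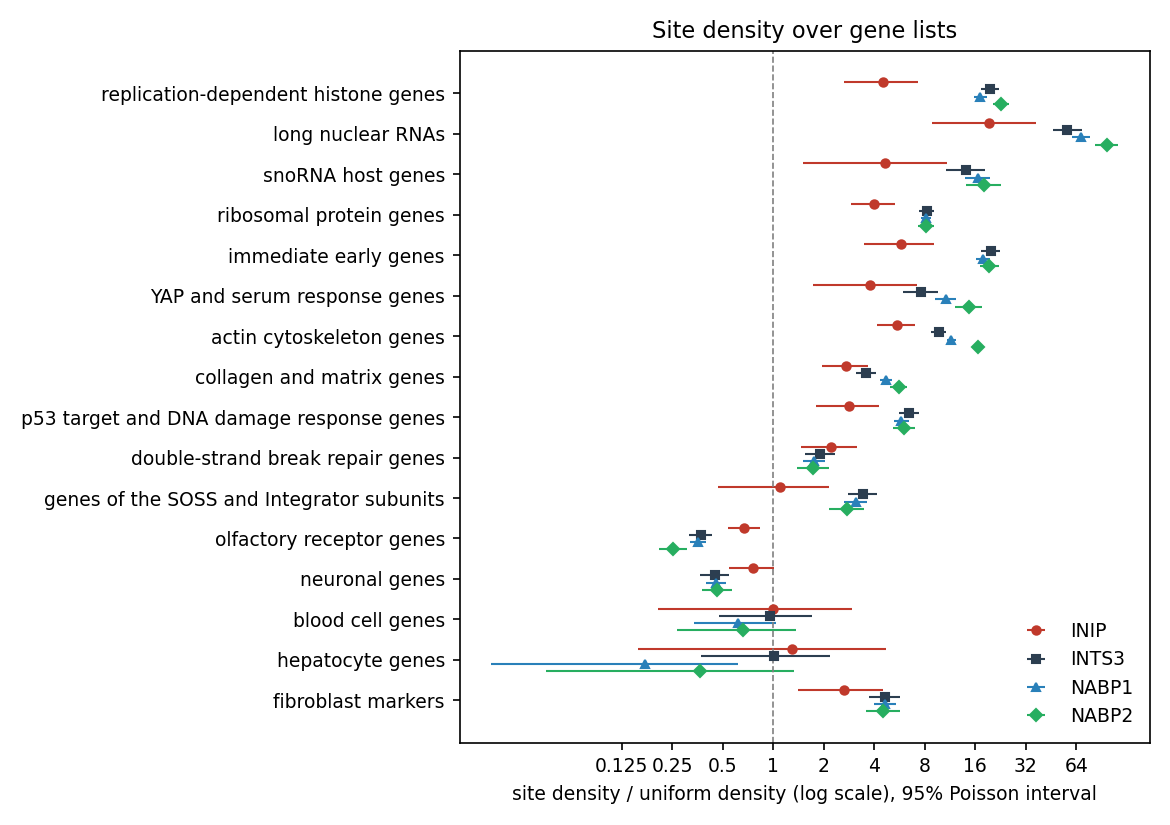
Site density divided by uniform density (horizontal axis, log scale) over 16 gene lists with 95% Poisson intervals, for INIP, INTS3, NABP1 and NABP2. INIP is below the other 3 in 11 lists and above them in 5.

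Gene lists group the sites by function. They were taken as fold over uniform density of their genes with 5 kb on each side, and counts are set beside all genes tested, of which INIP was below all 3 at 53.3%, with a median log2 ratio of -0.46. Replication-dependent histone genes, whose messages end in a stem-loop and not a poly(A) tail, were at 4.54 (2.64 to 7.27) times uniform in INIP, against 19.6, 17.1 and 22.8 in INTS3, NABP1 and NABP2. Among sites that match GTNAC, of which INIP had 4 there, it was at 7.05, against 17.1, 19.0 and 18.3. Of 67 members 38 were tested, and INIP was below all 3 at each of the 38, with a median log2 ratio of -1.74. These members overlap within clusters and so share sites. With INIP below at each, they reached the minimum mean through the other libraries, so the count and the ratio are a description. Over all tested genes under 10 kb, INIP was below all 3 at 75.1%, with a median log2 ratio of -1.20. Hist2h3c1 had 2 INIP sites, against 28, 36 and 27. Of the long nuclear RNAs that seed or attend nuclear bodies, Neat1 had 5 INIP sites, against 53, 130 and 81, and Malat1 had 4, against 49, 111 and 80. Neither passed against all 3 libraries.

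Immediate early genes, which serum and stress induce, were at 5.79 times uniform in INIP, against 19.8, 17.8 and 19.4. Among sites that match GTNAC the gap nearly closed, at 16.1 from 8 INIP sites, against 18.1, 16.3 and 20.9. Fosl1 had 2 INIP sites, against 45, 64 and 30, and Junb had 4, against 32, 48 and 21. Genes of snoRNA hosts were at 4.63 in INIP, against 14.1, 16.5 and 18.0, and over gene bodies alone at 9.95 from 3 sites, against 18.0, 22.4 and 27.2. Ribosomal protein genes were at 3.98 in INIP, against 8.22, 8.13 and 8.10. Among sites that match GTNAC they were at 9.13 in INIP from 16 sites, within the range of 7.89, 9.58 and 9.69, and over gene bodies alone at 6.93, against 10.5, 11.3 and 10.95. YAP and serum response genes were at 3.77 in INIP, against 7.58, 10.7 and 14.7, and there Cyr61, for a secreted matrix protein, had 1 INIP site, against 13, 37 and 29.

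Structural genes of fibroblasts were dense in all 4 libraries and least so in INIP. Actin cytoskeleton genes were at 5.43 in INIP, against 9.69, 11.5 and 16.6. Plec, for the linker protein plectin, had 10 INIP sites, against 63, 136 and 100. Myh9, for a nonmuscle myosin heavy chain, had 6, against 57, 124 and 117. Cald1 of the same list had 36.1 sites per 100000 in INIP, against 31.1, 49.9 and 72.6, so INIP was not the lowest there. Collagen and matrix genes were at 2.72 in INIP, against 3.57, 4.71 and 5.60. Col4a1 had 2 INIP sites, against 29, 84 and 41, or 8.03 per 100000, against 30.1, 44.6 and 46.5. Col5a1 had 11 INIP sites, against 16, 50 and 46, or 44.2 per 100000, against 16.6, 26.5 and 52.2. At Col5a1 INIP thus lay above INTS3 and NABP1 and below NABP2. Fibroblast markers such as Vim, for vimentin, stood above uniform density in all 4 libraries, at 2.64 in INIP, against 4.63, 4.65 and 4.54. Hepatocyte genes had 2 INIP sites and blood cell genes 3, and at these numbers no difference was detectable.

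SOSS acts in the damage response, and 2 lists are tied to it. The p53 target and damage response genes were at 2.83 in INIP, against 6.45, 5.80 and 6.04. Gadd45b and Bax had 0 INIP sites each, against 20, 43 and 29 at Gadd45b and 23, 33 and 16 at Bax. Neither passed the test after adjustment. Double-strand break repair genes were one of the 5 lists in which INIP was highest, at 2.20 (1.47 to 3.16), against 1.90, 1.74 and 1.74, which lie within its interval. Over gene bodies alone INIP was the lowest, at 1.69, against 1.77, 1.71 and 1.78, and among sites that match GTNAC it lay within the range, at 2.0, against 2.25, 1.77 and 2.45. Genes of the SOSS and Integrator subunits themselves were at 1.09 in INIP, against 3.42, 3.10 and 2.74.

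Olfactory receptor genes, which fibroblasts do not use, were at 0.67 (0.54 to 0.84) times uniform in INIP, against 0.37, 0.36 and 0.25, from 82, 174, 329 and 109 sites in INIP, INTS3, NABP1 and NABP2. Among sites that match GTNAC they were at 0.54 in INIP, from 10 sites, against 0.32, 0.35 and 0.24. Neuronal genes were at 0.75 in INIP, against 0.45, 0.46 and 0.46. Among sites that match GTNAC the neuronal value was 0.46 from 4 INIP sites, within the range of 0.46, 0.38 and 0.49. Syt1, a synaptic vesicle protein gene, had 9 INIP sites, against 15, 26 and 12, or 36.1 per 100000, against 15.6, 13.8 and 13.6. With all sites INIP was nearer to uniform density than the 3 others in both lists. In the shared run INIP was again below the others in 11 lists and above them in 5. No member of any list was called higher or lower than all 3 libraries.

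Sites of the INIP library also lay farther apart from each other. With every library thinned at random to 24907 sites, 5.16% (4.89 to 5.44) of INIP sites had another within 1 kb, against 10.3% in INTS3, 11.9% in NABP1 and 16.03% in NABP2. In the shared run, with 15333 sites each, the shares were 3.54% in INIP, against 6.89% in INTS3 and 11.8% in NABP2. Over 26398 windows of 100 kb, the Spearman correlation of thinned INIP counts was 0.30 with INTS3, 0.31 with NABP1 and 0.31 with NABP2. Between the 3 others it was 0.43 for INTS3 with NABP1, 0.43 for INTS3 with NABP2 and 0.45 for NABP1 with NABP2. At this size 15 of 2450 regions of 1 Mb were called between INIP and INTS3 (0.612%), 11 between INIP and NABP1 (0.449%) and 31 between INIP and NABP2 (1.27%). Between the 3 others 0 were called in each of their pairs (0.0%), by the same exact binomial test with adjustment. Of 3428 windows of 100 kb, 4 were called against INTS3, 2 against NABP1 and 5 against NABP2 (0.117%, 0.0583% and 0.146%), and 0 between the others. Single genes separated less, with 1, 1 and 11 of 3624 called (0.0276%, 0.0276% and 0.304%). Between INTS3 and NABP2 1 gene was called as well (0.0276%), and 0 in the other pairs.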

How the data were processed

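Integration junctions were amplified by linker-mediated nested PCR from genomic DNA and sequenced as read pairs, and mapping used mm9, per the labels' protocols and the submitters' processing notes. The sources used here name no aligner and no filter. The deposited files are lists in which an entry holds chromosome, position, strand and a read name followed by 2 numbers, and the first of these was treated as a number of reads, which no header states. Entries were collapsed to distinct positions, and repeat runs counted as 1 library. Positions are printed 1-based. On the minus strand the deposited position stood 1 base beyond the joined base, judged from the target bases, and was shifted for sequence only. Genes, snRNA copies and sequences came from an annotation and genome of the mm9 assembly. Members and lists were chosen with earlier results of these data known. Genes and windows were compared by exact two-sided conditional binomial tests (scipy 1.17.1) with Benjamini-Hochberg adjustment within each comparison, called where all 3 adjusted p were below 0.05 in 1 direction. Log2 ratios used a pseudocount of 1 site per 100000. Alternatives used 1 run, thinned or filtered sites, other widths and limma 3.58.1, in which INIP is assumed to vary like the other libraries. Named genes were those called, the 10 with most INIP sites and up to 3 per list with most sites. The tests were checked on simulated counts, where they called few of the simulated decreases and most of the increases of the same fold. The changed genes had a mean of at least 5 sites at the size of the INIP library, and counts varied by Poisson error alone. Recovery at genes with fewer sites was not tested. Depth is the number of sites, and precision at single genes is limited by the 24907 of INIP.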

Additional observations from a re-analysis of the deposited data

Results flagged for a closer look

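Sites within 1 kb downstream of snRNA starts, the feature most prominent in INIP, also appeared in the 7 libraries that the comparisons do not use, each above the limit that a count of 0 allows (3 counts). The levels per 100000 sites were 363 in NELFE, 249 in NELFA, 181 in NELFB, 144 in INTS11, 136 in NELFCD, 48.8 in SPT5 and 47.2 in INTS9. In INTS9 they differed by run, with 284 in one and 19.8 in the other.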

How the results depend on the processing

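No paired analysis was possible because each protein has 1 library, whose replicate number pairs nothing. The counts of 3 higher and 11 lower gene parts held under every alternative tried, except for 9 lower among sites that match GTNAC, where genes of 50 to 200 kb no longer lay below INTS3. The 1 gene higher became 0 in the shared run, after thinning, with no minimum, with limma, over gene bodies alone, among sites matching GTNAC and without sites preceded by AGCA, and 3 with a minimum mean of 5. The 1 gene lower became 0 in the shared run, after thinning, with limma, with a 2-fold minimum and among sites matching GTNAC, and 6 with a minimum mean of 5. Leaving out each other library in turn gave 1 to 3 genes higher and 1 lower, the 3 without NABP1 and 2 without INTS3. For windows, 0 higher became 16 and 5 lower became 26 with regions of 1 Mb. The 5 lower became 2 in the shared run, with a first number of at least 3 and with no minimum, 0 after thinning, with limma and among sites matching GTNAC, and 13 with a minimum mean of 5. Leaving out 1 other library gave 0 to 1 windows higher, the 1 without NABP2, and 5 to 7 lower. Only 19 genes and 40 windows could be tested among sites matching GTNAC. At snRNA copies with 5 kb on each side, the log2 ratio of INIP to the mean of the others was 0.11 and turned to -0.30 in the shared run; with 1 kb on each side it was 1.02 and became 0.091 in the shared run. Lists with INIP above all others numbered 5, against 2 among sites matching GTNAC and 3 over gene bodies alone. The lists of neuronal, blood cell and double-strand break repair genes left that side among sites matching GTNAC, and those of blood cell and double-strand break repair genes over gene bodies. The difference in clustering, -7.59 percentage points, became -18.0 within 10 kb, -5.82 in the shared run and -7.02 without sites preceded by AGCA, and ranged from -8.82 to -5.95 when 1 other library was left out. The causes of these shifts were not tested. The alternatives on GTNAC and AGCA were chosen after seeing the data.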
